A study of Homo sapiens with 4 samples.

Results

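The lncRNAs of the HOXB, HOXC and HOXD clusters described here are 6 genes: HAGLR in the HOXD cluster, HOXC-AS3, HOTAIR, HOXC-AS1 and HOXC-AS2 in the HOXC cluster, and HOXB-AS1 in the HOXB cluster. They were chosen by position and name, not by level, and every row of the deposited table whose transcript identifier belongs to one of these genes in GENCODE release 44 on GRCh37 was taken. That gave 28 of 19835 transcript rows, in 6 of 11466 matched genes. The cells were HUH7, a line established from a human hepatocellular carcinoma, sampled in 4 libraries of 1 group with no treatment and no control arm, all grown in glucose-containing DMEM with serum, gentamicin and HEPES. The values are FPKM, that is, fragments scaled by transcript length and by library depth, so that levels are given per length and genes of different length can be compared. The study used these data to draw up the lncRNAs for a knockdown screen and kept transcripts above 5 FPKM. This level is the threshold of the tests below, which apply it to transcripts and also to gene sums, a more lenient measure than that of the study. Whether the 4 libraries stem from separate cultures is not stated, and the p-values below therefore reflect the spread among these libraries alone, which may be technical. Errors are SD over n = 4 libraries unless stated otherwise.

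HOX genes encode homeobox transcription factors that give cells their position along the body axis, and in mammals they lie in 4 clusters, HOXA to HOXD. Each cluster also gives rise to lncRNAs, many of them transcribed from the strand opposite to the HOX genes. HOTAIR is the best known of these: it was described in human fibroblasts as an RNA of the HOXC cluster that contacts the Polycomb repressive complex and acts on the HOXD cluster, and it has been studied widely in cancer. HAGLR, also called HOXD-AS1, lies beside HOXD1. The other 4 genes are named for the cluster whose coding strand they oppose.

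All 6 genes were on the strand opposite to the coding HOX genes of their cluster. HAGLR (ENSG00000224189, chr2:177028779-177053274, minus strand) overlapped the span of HOXD3. The most upstream start among the GENCODE models of its rows, that of HAGLR-203, was 0.122 kb from HOXD1. A RefSeq start of HAGLR lies 412 nt further upstream, within HOXD1. HOTAIR (ENSG00000228630, chr12:54356092-54368740, minus strand) overlapped the span of HOXC11 and HOXC-AS3 (ENSG00000251151, chr12:54375293-54379303, minus strand) that of HOXC10. HOXC-AS2 (ENSG00000250133, chr12:54388992-54390569, minus strand) and HOXC-AS1 (ENSG00000250451, chr12:54392806-54393794, minus strand) both overlapped the spans of HOXC6 and HOXC9. HOXB-AS1 (ENSG00000230148, chr17:46620913-46628612, plus strand) overlapped HOXB2 and HOXB3.

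The sequences below are windows around 2 groups of annotated HAGLR starts, a grouping made after the isoform values had been seen. Each runs from 250 bases before to 50 after a RefSeq start (table of GRCh38.p14, each window found once, unchanged, in GRCh37). Capitals mark CACGTG, the E-box bound by basic helix-loop-helix factors, which reads the same on both strands. The first window (chr2:177053251-177053550, minus strand) lies at the upstream starts by HOXD1, where the current models of HAGLR-203, HAGLR-204 and HAGLR-207 begin. The second (chr2:177042808-177043107, minus strand) lies at the internal starts. The models of HAGLR-202 and 6 more isoforms begin within 100 nt of its RefSeq start. Of these 6, HAGLR-206, HAGLR-208, HAGLR-209, HAGLR-211 and HAGLR-212 were listed at 0 in every library.

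HAGLR upstream start: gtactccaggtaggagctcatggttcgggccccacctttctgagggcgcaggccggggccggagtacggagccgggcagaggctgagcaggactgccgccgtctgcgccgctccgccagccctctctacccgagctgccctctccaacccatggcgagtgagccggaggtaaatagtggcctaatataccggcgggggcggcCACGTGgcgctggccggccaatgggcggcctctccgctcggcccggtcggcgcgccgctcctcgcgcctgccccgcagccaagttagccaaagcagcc
HAGLR internal start: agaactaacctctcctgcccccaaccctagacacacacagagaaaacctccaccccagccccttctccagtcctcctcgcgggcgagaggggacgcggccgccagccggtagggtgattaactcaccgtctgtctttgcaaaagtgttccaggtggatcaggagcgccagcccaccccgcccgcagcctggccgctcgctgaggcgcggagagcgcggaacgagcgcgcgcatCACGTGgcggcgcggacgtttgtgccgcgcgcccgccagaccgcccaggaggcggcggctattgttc

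CACGTG was found at -48 from the start in the upstream window and at -17 in the internal one, and in 7.26% of all 35116 windows of the table. The upstream window held 31 CpG and the internal one 33 CpG, against a median of 14 over all windows. HAGLROS, a lncRNA on the other strand, has a window (chr2:177042644-177042943, plus strand) that overlaps the internal one and holds the same CACGTG at -25 from its own start. The 2 further HAGLR windows, one of them at the start of HAGLR-205, and the HOXB-AS1 window (5 CpG) did not hold it. None of the 5 windows of HAGLR and HOXB-AS1 held TATAAA (in 11.5% of all windows), TAATTA (4.84%), TGATTNAT (2.82%), AGGTCA (13.8%) or the palindromic oestrogen response element (0.057%), each searched on both strands. The table had windows for 2 of the 6 genes, HAGLR and HOXB-AS1. A motif match describes the letters and shows no binding.

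HAGLR was by far the most abundant of the 6 lncRNAs, HOXC-AS3 and HOTAIR followed at similar levels, and HOXC-AS1, HOXC-AS2 and HOXB-AS1 were low. The gene value is the sum of its transcript rows. limma's moderated one-sample test of log2(FPKM + 1) against log2(5 + 1), adjusted over 7124 genes by Benjamini-Hochberg, placed 3 of the 6 genes above 5 FPKM and 3 below. Over all genes tested, 50.3% were placed above, 38.5% below and 11.2% on neither side, so that the share of the HOX lncRNAs above 5 FPKM was near that of genes in general. Their median was 6.36 FPKM, against 7.61 FPKM over all genes tested.

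**Figure D1:**
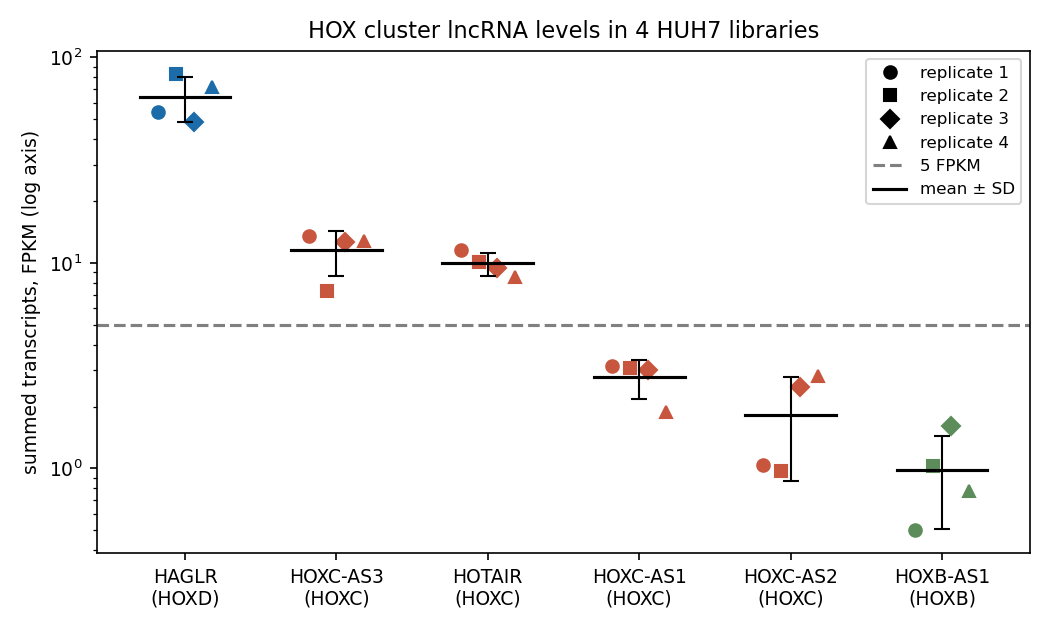
Level of each of the 6 lncRNAs in FPKM (log axis) in the 4 HUH7 libraries, coloured by HOX cluster, with the mean and SD as black bars and 5 FPKM as a dashed line. HAGLR, HOXC-AS3 and HOTAIR sit above the line in all 4 libraries, and HOXC-AS1, HOXC-AS2 and HOXB-AS1 below it in all 4.

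HAGLR had 54.3, 83.3, 48.6 and 71.5 FPKM in replicates 1 to 4 (64.4 ± 15.9), which put it at the 81.3 percentile of genes with a mean of at least 0.1 FPKM. No other member reached its lowest library. Its log2 difference from 5 FPKM was 3.41 (SE 0.12, limma adjusted p = 1.13e-12). Both libraries whose titles carry the letter H (replicates 2 and 4) were higher than both whose titles carry L (replicates 1 and 3). The submitters state that the letters are internal names and no variables, and the part of the letter in this spread was not tested.

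HOXC-AS3, an antisense transcript beside HOXC10 that has been studied in gastric cancer, had 13.4, 7.27, 12.6 and 12.8 FPKM (11.5 ± 2.85). Replicate 2 lay apart from the other 3 libraries, which were close together. The log2 difference from 5 FPKM was 1.03 (SE 0.18, limma adjusted p = 7.18e-05). HOTAIR had 11.6, 10.1, 9.44 and 8.56 FPKM (9.93 ± 1.28) and the smallest relative spread of the 6 genes. It lay 0.86 above the threshold on the same scale (SE 0.16, limma adjusted p = 0.00019). Both genes passed only as sums of isoforms. With the highest transcript taken in place of the sum, HOXC-AS3 lay 0.21 (adjusted p = 0.326) and HOTAIR 0.07 (adjusted p = 0.732) above 5 FPKM in limma and neither was placed. Neither was placed with the libraries scaled to a common sum of 1000000 FPKM (adjusted p = 0.259 for HOXC-AS3 and 0.768 for HOTAIR). With only the rows whose version equals that of the GENCODE model, HOTAIR was left with HOTAIR-203 and fell below 5 FPKM (log2 difference -1.56, limma adjusted p = 4.06e-05).

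The 3 low genes stayed under 5 FPKM in every library. HOXC-AS1 had 3.15, 3.08, 3.01 and 1.88 FPKM (2.78 ± 0.603), with replicate 4 below the others. Its log2 difference was -0.68 (SE 0.22, limma adjusted p = 0.00995), and without replicate 4 it was -0.56 and no longer passed (adjusted p = 0.05). HOXC-AS2 had 1.04, 0.97, 2.48 and 2.81 FPKM (1.83 ± 0.957), with replicates 3 and 4 above replicates 1 and 2. It was placed below 5 FPKM (log2 difference -1.15, limma adjusted p = 0.000498). HOXB-AS1 had 0.5, 1.03, 1.6 and 0.78 FPKM (0.978 ± 0.468) and was placed furthest below (log2 difference -1.63, limma adjusted p = 6.7e-06). In bulk RNA, a low value from few expressing cells and one from little RNA in each cell cannot be told apart.

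Summed over the 6 genes alone, the clusters stood in the order HOXD, HOXC and HOXB. The summed level was 54.3, 83.3, 48.6 and 71.5 FPKM in the HOXD cluster (HAGLR alone), against 29.2, 21.45, 27.5 and 26.0 FPKM for the 4 genes of the HOXC cluster and 0.5, 1.03, 1.6 and 0.78 FPKM in the HOXB cluster (HOXB-AS1 alone). The 3 ranges did not overlap. Within a library, where scaling between libraries cancels, HOXD exceeded HOXC by a log2 ratio of 1.28 ± 0.53 (2.43-fold, higher in 4 of 4 libraries, exact two-sided sign-flip permutation p = 0.13). The ratio of HOXD to HOXB was 6.14 ± 0.83, and that of HOXC to HOXB was 4.85 ± 0.79, both in 4 of 4 libraries and with the same exact p. With 4 libraries this is the smallest p that the test can give (2 of 16 assignments of signs), so it cannot reach 0.05, and adjustment over the 3 pairs left it unchanged. HOXD exceeded HOXC by 0.86 in the libraries titled L and by 1.71 in those titled H, so the size of this ratio differed between the letters and its direction did not. The order holds for these genes and not for all rows of the table in each cluster (with 10 kb on either side). Their means summed to 79.9 FPKM in HOXD, 61.0 FPKM in HOXC and 69.9 FPKM in HOXB, the last almost wholly from 1 row of the coding gene HOXB7 (67.5 FPKM). This row has no defined coding sequence. Coding transcripts were absent from the reference, so fragments of HOXB7 mRNA could be counted in it where exons are shared, which was not tested.

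Of 15 pairs of genes, 12 kept the same order in all 4 libraries (exact p = 0.13, 0.156 after adjustment over the 15). HAGLR exceeded HOXC-AS3 by a log2 ratio of 2.49 ± 0.72 and HOTAIR by 2.67 ± 0.44. HOTAIR exceeded HOXC-AS1 by 1.86 ± 0.24, the steadiest of all the ratios. The 3 other pairs were neighbours in the order of levels. HOXC-AS3 and HOTAIR differed by 0.18 ± 0.46 (HOXC-AS3 higher in 3 of 4, exact p = 0.5) and HOXC-AS1 and HOXC-AS2 by 0.74 ± 1.09 (HOXC-AS1 higher in 3 of 4, exact p = 0.375), both less than the spread. HOXC-AS2 and HOXB-AS1 differed by 0.86 ± 0.81 (HOXC-AS2 higher in 3 of 4, exact p = 0.25). The order of the levels was thus HAGLR, then HOXC-AS3 and HOTAIR, which could not be ranked against each other. HOXC-AS1, HOXC-AS2 and HOXB-AS1 followed, of which HOXC-AS1 was above HOXB-AS1 in all 4 libraries.

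**Figure D2:**
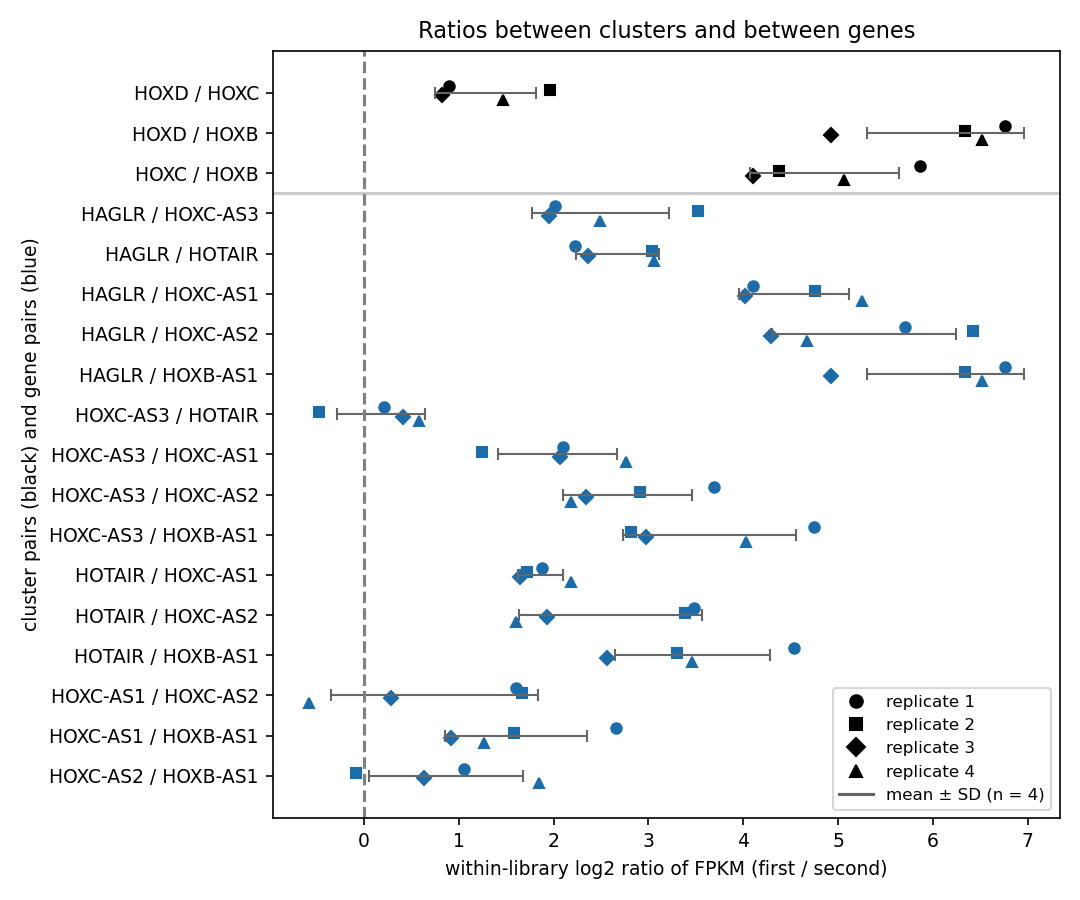
Within-library log2 ratios of FPKM for the 3 pairs of clusters (black) and the 15 pairs of genes (blue), one symbol per replicate, with mean and SD as bars and 0 as a dashed line. All points lie right of 0 except 1 library each of HOXC-AS3 / HOTAIR, HOXC-AS1 / HOXC-AS2 and HOXC-AS2 / HOXB-AS1.

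At the level of transcripts, 19 of the 28 rows had a value above 0 in at least 1 library, and all 19 had a mean of at least 0.1 FPKM. The other 9 rows (32.1%) were listed at 0 in all 4 libraries, against 39.4% of all rows of the table. limma placed 3 of the 19 rows above 5 FPKM, all of them isoforms of HAGLR, and 12 below, and it did not place 4. Of 11435 transcripts tested, 41.9% were placed above, 43.3% below and 14.8% on neither side.

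**Figure D3:**
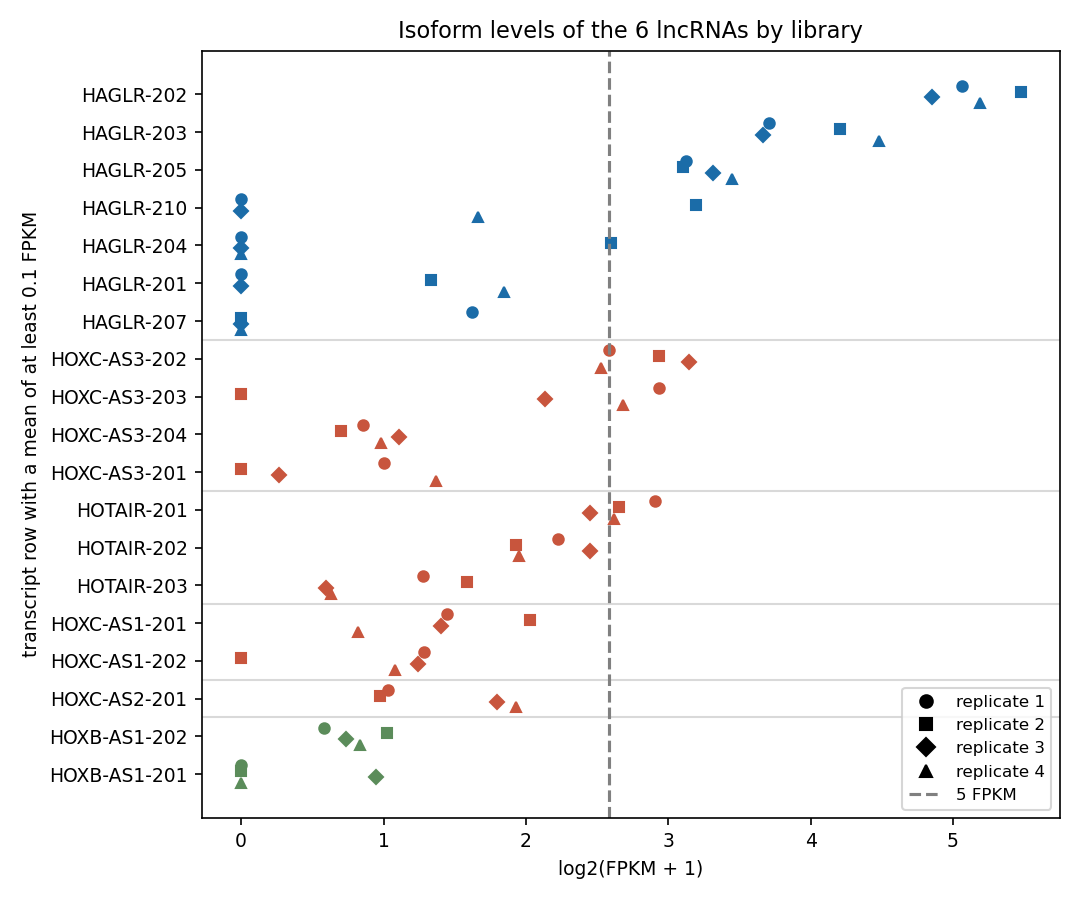
Value of each of the 19 transcript rows with a mean of at least 0.1 FPKM, as log2(FPKM + 1) on the horizontal axis, one symbol per replicate, with 5 FPKM as a dashed line. HAGLR-202, HAGLR-203 and HAGLR-205 lie right of the line in all 4 libraries, and several weaker isoforms are listed at 0 in some libraries.

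Among the 12 HAGLR rows, HAGLR-202 (ENST00000416928, 4095 nt in the current model) had 32.4, 43.5, 28.0 and 35.6 FPKM (34.9 ± 6.56, limma adjusted p = 3.74e-08), or 54.8 ± 4.61% of the gene. HAGLR-203 (ENST00000417086, 1322 nt) had 12.1, 17.5, 11.7 and 21.3 FPKM (15.6 ± 4.62, limma adjusted p = 3.58e-05) and held 24.3 ± 3.90%. HAGLR-205 (ENST00000436126, 945 nt) had 7.72, 7.59, 8.97 and 9.9 FPKM (8.55 ± 1.10, limma adjusted p = 0.00486). These 3 isoforms kept their order in every library. Unlike them, 4 more rows came and went between libraries. HAGLR-210 was listed at 0, 8.14, 0 and 2.17 FPKM and HAGLR-201 at 0, 1.52, 0 and 2.59 FPKM, both above 0 only in replicates 2 and 4, the libraries titled H. HAGLR-204 had 5.04 FPKM in replicate 2 and HAGLR-207 had 2.07 FPKM in replicate 1, and each was listed at 0 in the other 3 libraries. In the current models, HAGLR-210, HAGLR-201 and HAGLR-207 share 83.7%, 87.3% and 91.2% of their length with HAGLR-202. HAGLR-204 lies wholly within exons of HAGLR-207. The part of the division of shared reads in this pattern was not tested. The remaining 5 rows (HAGLR-206, HAGLR-208, HAGLR-209, HAGLR-211 and HAGLR-212) were listed at 0 throughout.

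Grouped by upstream and internal starts, the 8 rows with internal starts summed to 32.4, 53.2, 28.0 and 40.3 FPKM (38.5 ± 11.1), against 21.9, 30.1, 20.6 and 31.2 FPKM (26.0 ± 5.47) for the 4 rows with upstream starts, HAGLR-205 included. The internal group was higher in 4 of 4 libraries, by a log2 ratio of 0.55 ± 0.20 (1.46-fold, exact sign-flip permutation p = 0.13), and held 59.4 ± 3.30% of the gene, between 56.4% and 63.9% in a single library. The internal group includes HAGLR-210, whose start lies 512 nt outside the internal window printed above. Without it, the other 7 rows summed to 32.4, 45.0, 28.0 and 38.2 FPKM, again higher than the upstream group in 4 of 4 libraries (log2 ratio 0.47 ± 0.14, exact p = 0.13). This grouping was made after the values of the isoforms had been seen. It rests on the starts of the current models, as do the shared lengths and words below. Every HAGLR row above 0 was quantified on an older version, whose start and length may differ. Only 0.32% of the 30-base words of HAGLR-202 (13 words) occurred in no other table row. HAGLR-202 shares 93.1% of its length with HAGLR-207, which is counted in the upstream group, 26.4% with HAGLR-203 and 16.4% with HAGLR-205, and RSEM divides the fragments of shared stretches by estimation. HAGLROS, whose window overlaps the internal starts, was listed at 0 in 3 libraries and at 0.2 FPKM in replicate 2.

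**Figure D4:**
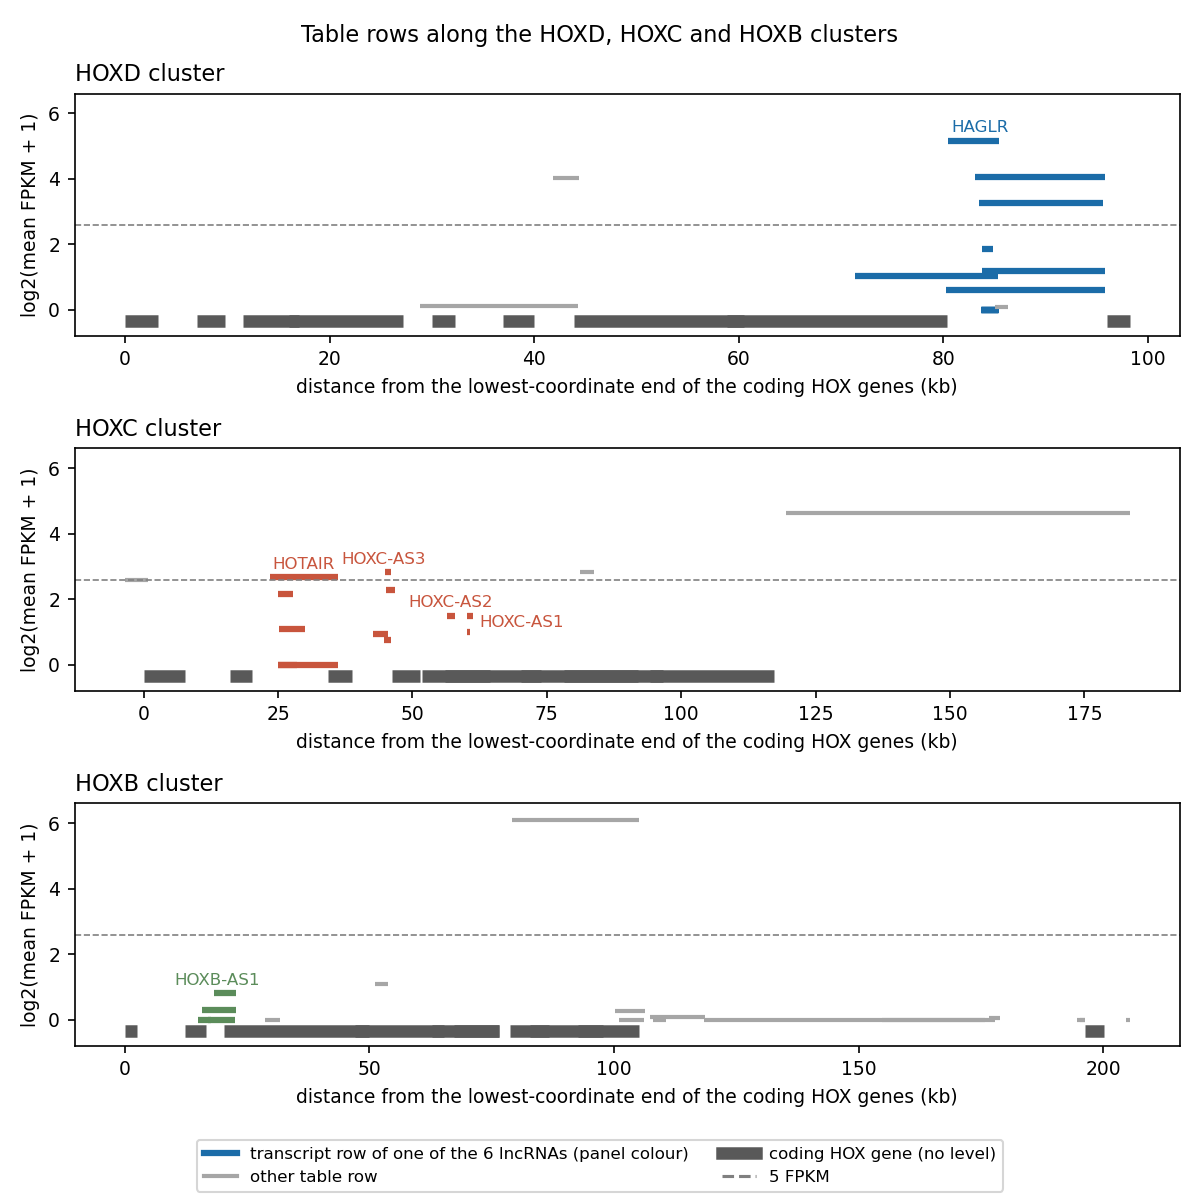
Table rows along the HOXD, HOXC and HOXB clusters, with distance in kb from the lowest-coordinate end of the coding HOX genes on the horizontal axis and log2(mean FPKM + 1) on the vertical axis. Coloured lines span the transcripts of the 6 lncRNAs, light grey lines other rows, dark bars the coding HOX genes (drawn without a level), and the dashed line marks 5 FPKM. The 3 highest HAGLR isoforms stand above the line between HOXD3 and HOXD1, and HOXB-AS1 rows lie near 0.

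The isoform makeup of HOXC-AS3 differed between libraries. HOXC-AS3-202 (ENST00000513165) had 4.99, 6.64, 7.84 and 4.76 FPKM (6.06 ± 1.45) and was not placed against 5 FPKM (log2 difference 0.21, 95% interval -0.25 to 0.68, limma adjusted p = 0.35). HOXC-AS3-203 (ENST00000514702) had 6.64, 0, 3.39 and 5.43 FPKM and was not placed either (log2 difference -0.65, 95% interval -1.66 to 0.37, limma adjusted p = 0.201). HOXC-AS3-203 was listed at 0 in replicate 2, the library in which the gene was lowest, and HOXC-AS3-202 held between 37.1% and 91.3% of the gene. Reads had to be divided between these isoforms. HOXC-AS3-202 has 329 of its 533 nt and HOXC-AS3-203 164 of its 368 nt outside the 204 nt that they share. Against all rows of the table, 4.96% of the 30-base words of HOXC-AS3-202 and 48.1% of those of HOXC-AS3-203 occurred in no other row. In HOXC-AS3-203, 63 nt (17.1%) lie antisense to exons of HOXC10. The remaining rows were HOXC-AS3-204, a retained-intron transcript of 2816 nt with 0.81, 0.63, 1.16 and 0.98 FPKM, and HOXC-AS3-201 with 1, 0, 0.2 and 1.58 FPKM. Replicate 2 thus listed 2 of the 4 isoforms at 0.

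HOTAIR was carried by 3 of its 5 rows. HOTAIR-201, the longest isoform (ENST00000424518, 2421 nt), had 6.5, 5.31, 4.46 and 5.14 FPKM (5.35 ± 0.849) and held 53.9 ± 5.45% of the gene. It was not placed on either side of 5 FPKM (log2 difference 0.07, 95% interval -0.38 to 0.53, limma adjusted p = 0.742). HOTAIR-202 (ENST00000425595, 572 nt) had 3.67, 2.82, 4.47 and 2.87 FPKM and was not placed (adjusted p = 0.0938). HOTAIR-203 (ENST00000439545, 560 nt) had 1.42, 2, 0.51 and 0.55 FPKM and was placed below (adjusted p = 0.00031). HOTAIR-204 and HOTAIR-205, which lie wholly within exons of HOTAIR-201, were listed at 0 in all 4 libraries. HOTAIR-202 shares 96.0% of its length with HOTAIR-201. Of the 30-base words, 60.2% of those of HOTAIR-201 but 3.87% of those of HOTAIR-202 occurred in no other row. The lengths and shared stretches of HOTAIR are those of current models, and only HOTAIR-203 was quantified on an unchanged version.

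HOXC-AS1 had 2 isoforms. HOXC-AS1-201 had 1.72, 3.08, 1.64 and 0.77 FPKM and HOXC-AS1-202 had 1.43, 0, 1.37 and 1.11 FPKM. The second was listed at 0 in replicate 2, where the first was highest, so that the sum differed less between replicates 1, 2 and 3 than either isoform did. HOXC-AS2 had a single row, whose 30-base words all occurred nowhere else in the table and which overlaps 10 nt of HOXC9 exons on the other strand. HOXB-AS1 rested on HOXB-AS1-202 with 0.5, 1.03, 0.67 and 0.78 FPKM, and HOXB-AS1-201 was above 0 only in replicate 3 (0.93 FPKM). HOXB-AS1-202 lies antisense to HOXB3 exons over 374 nt (64.7% of its length), the largest such overlap among the rows above 0. The libraries were stranded, but no source used here states whether the alignment took strand into account. If it did not, reads of HOXB3 and of HOXB-AS1 cannot be told apart there. Of the 28 rows, 8 overlap coding exons on the other strand and 0 on their own strand. HAGLR-202, HAGLR-203 and HAGLR-205 and all HOTAIR rows overlap none.

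The low members rested on few fragments. The table gives no depth, but low FPKM values fell on steps, which gave estimates between 4500000 and 5030000 fragments on non-coding transcripts per library. On average 66.0% of the low values came within 0.05 of a whole number of fragments, against 12.2% after the lengths were shuffled. The depth was chosen to bring the most values this close, over rows that include HOXC-AS2, so closeness to whole numbers is no separate check. HOXC-AS2 came to about 1.98, 2, 4.97 and 5.99 fragments, and HOXB-AS1-202 to 1.12, 2.49, 1.58 and 1.95. The coefficient of variation of HOXC-AS2 over libraries was 52.4%, against 51.7% expected from counting alone at its mean of 3.74 fragments. HOXC-AS3-202 came to 10.2, 14.6, 16.8 and 10.8 fragments, and HOXC-AS3-203 to 8.61, 0, 4.62 and 7.87 fragments. HOXC-AS3-203 varied by 75.2%, against 43.6% from counting. HOXB-AS1-202 averaged 1.79 fragments, so that at this depth its differences between libraries could not be told from counting error. These estimates cover counting error only and were made for rows of unchanged version.

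**Figure D5:**
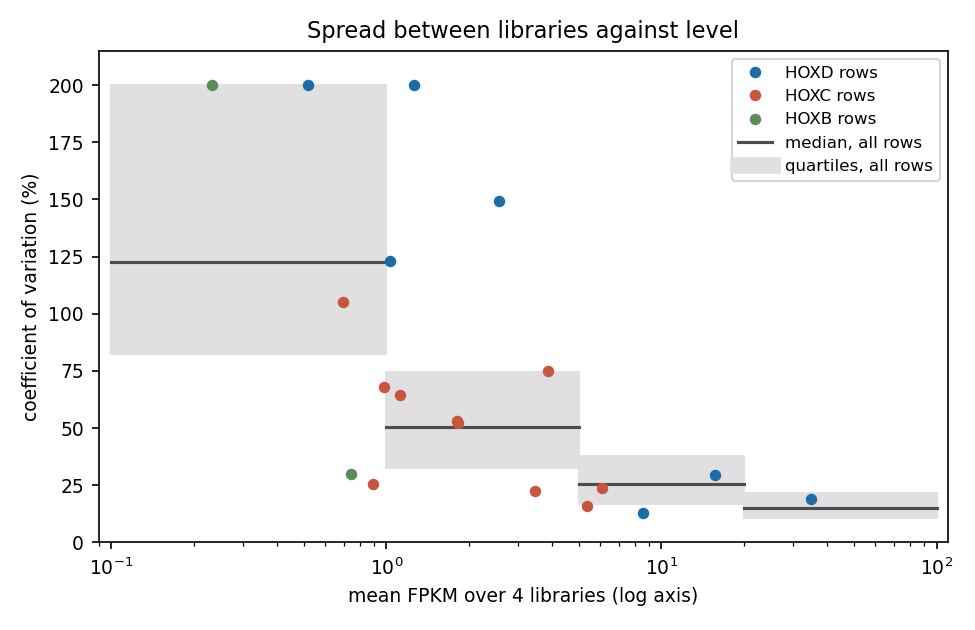
Coefficient of variation over the 4 libraries (%) against mean FPKM (log axis) for the 19 transcript rows of the 6 lncRNAs, with the median and quartiles of all table rows in 4 classes of level as grey lines and bands. The HOTAIR and HOXC-AS3 rows just above 5 FPKM and the 3 highest HAGLR rows lie below the upper quartile of their class, and 3 rows above 0 in 1 library lie at 200%.

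The 5 rows with a mean above 5 FPKM varied between libraries by 12.8% to 29.6%. HAGLR-202 had a coefficient of variation of 18.8%, HAGLR-203 of 29.6%, HAGLR-205 of 12.8%, HOXC-AS3-202 of 24% and HOTAIR-201 of 15.9%. Over all rows of the table, the median was 123% between 0.1 and 1 FPKM, 50.5% between 1 and 5, 25.4% between 5 and 20 and 15% between 20 and 100 FPKM. HAGLR-210, with a mean of 2.58 FPKM and a coefficient of 149%, stood above the upper quartile of its class (74.6%). Summed over the 6 genes, the libraries had 84.0, 105.8, 77.7 and 98.3 FPKM, while all rows of the table summed to 1965229, 1755972, 1904926 and 1935247 FPKM. Replicate 2 thus had the highest sum of the 6 genes and the lowest sum of all rows.

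HAGLR also exceeded every other measured lncRNA of the HOX clusters by its mean, while HOXC-AS3 and HOTAIR did not. From a list of 21 other HOX cluster lncRNAs, 12 were measured. limma placed 3 above 5 FPKM, 5 below and 1 on neither side, while 3 were under the filter of 0.1 FPKM. Among all genes tested, the shares were 50.3% above, 38.5% below and 11.2% on neither side. In the HOXD cluster, HOXD-AS2 had 15.2, 14.1, 13.2 and 19.4 FPKM (15.5 ± 2.76), which was under HAGLR in every library. In the HOXC cluster, HOXC13-AS had 7.16, 4.19, 3.34 and 5.39 FPKM (5.02 ± 1.66) and was not placed. In the HOXB cluster, HOXB-AS2 and PRAC2 were listed at 0 in all 4 libraries, and HOXB-AS4 was above 0 only in replicate 4 (0.82 FPKM). PRAC2 is counted on this list, although GENCODE release 44 types its rows as protein-coding. Of the 17 table rows of the HOXB cluster (with 10 kb on either side), 10 were listed at 0. This held for 2 of 15 rows of the HOXC cluster, 5 of 15 of the HOXD cluster and 39.4% of all rows. The row of highest level in the HOXB cluster was that of the coding gene HOXB7 at 67.5 ± 4.13 FPKM, which may include fragments of HOXB7 mRNA. The 6 measured lncRNAs of the HOXA cluster ranged between 0.485 and 46.1 FPKM, with 2 above 5 FPKM and 4 below. HOTAIRM1 (46.1 ± 10.3) and HOXA-AS2 (35.1 ± 2.41) were its highest, above HOTAIR and HOXC-AS3 and below the mean of HAGLR (64.4 FPKM). HAGLR was not above HOTAIRM1 in every library: in replicate 1 HAGLR had 54.3 FPKM and HOTAIRM1 57.8 FPKM, and in replicate 3 they had 48.6 and 47.5 FPKM.

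Other lncRNAs known for contacts with chromatin complexes gave a scale for these levels. Of 7 listed, 6 were measured, and 5 were placed above 5 FPKM and 1 below. HOTAIR, with 9.93 FPKM, was under the 3 highest of them, which were MALAT1, a nuclear speckle RNA, with 1098 FPKM, TUG1 with 336 FPKM and CDKN2B-AS1, the antisense RNA of the CDKN2B locus, with 85.4 FPKM. Of 8 measured liver markers, 4 were above 5 FPKM, with HULC (693 FPKM) and LINC00261 (377 FPKM) the 2 named here that were high. The 4 others were below, with means between 0.238 and 1.14 FPKM. Over all genes tested, 50.3% were placed above, so this list was split much as genes in general. Of markers of other tissues, 3 of 5 measured lncRNAs of fibroblasts, muscle and endothelium were above 5 FPKM (MIR503HG, MEG3 and CARMN at 54.1, 50.6 and 22.3 FPKM) and 2 below. Among 6 neural markers, 3 were above and 2 below, and MIR9-3HG was listed at 0. DLX6-AS1, SOX2-OT and RMST were the highest of these (309, 104 and 78.9 FPKM). Of 4 blood markers, 2 were above (LINC00426 and PCED1B-AS1 at 328 and 101 FPKM). The 2 others, MIR142HG (mean 0.035 FPKM) and MIR155HG (listed at 0), were under the filter of 0.1 FPKM. Their part in the levels of the HOX lncRNAs was not tested.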

How the data were processed

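HUH7 RNA (Qiagen RNeasy) was depleted of ribosomal RNA with Ribo-Zero and sequenced from stranded libraries, although the labels also list it as polyA RNA. The submitters' processing notes and the study's methods give alignment with Bowtie 1.01 to hg19 (GRCh37) and quantification with RSEM 1.2.3 over a non-coding Ensembl annotation (release 68), and the authors deposited FPKM per transcript without counts. RSEM divides reads shared by isoforms by estimation, and coding transcripts were absent from the reference, so levels are relative to non-coding fragments.

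Identifiers were matched to GENCODE release 44 mapped to GRCh37 (18373 of 19835 rows, 11443 of unchanged version, and 10 of the 28 rows of the 6 genes). Lengths, exons and sequences therefore come from newer models for most rows. Coding exons on either strand were taken from the same annotation. Sequence uniqueness was measured on words of 30 bases. log2(FPKM + 1) of features with a mean of at least 0.1 FPKM was tested against log2(5 + 1) with limma 3.58.1 in R 4.3.3 (one-sample, mean-variance trend, two-sided, Benjamini-Hochberg, threshold 0.05). This scale understates differences of low genes. Ratios within a library were tested by exact sign-flip permutation (Python 3.11.15). The test code was tested on simulated data. The genes and lists were chosen with earlier results of these data known. Named were the 6 genes and their rows with a mean of at least 0.1 FPKM, the other measured lncRNAs of the HOXB, HOXC and HOXD clusters, and the 3 highest genes of each other list, of which 1 is not reported here. HOXB7, FLJ12825 and ENSG00000260597 fall outside this rule and were chosen after their values were seen. Alternatives were other pseudocounts, filters, thresholds and scalings, no trend, single transcripts, unchanged versions, the title letters and each library left out.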

Additional observations from a re-analysis of the deposited data

Results flagged for a closer look

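In groups of 4 libraries, the highest or lowest value was compared with the rest by its gap divided by the whole range, with a critical value of 0.83 (Dixon's test at 95%). Of 25 values checked (6 genes and 19 rows), 5 passed it. The nominal rate of 1 in 20 holds for independent normal values, and gene sums are not independent of their own rows. The share passing over all rows was not computed, so the count is not read as an excess. HOXC-AS3 was lowest in replicate 2 (gap of 0.862 of the range) and HOXC-AS1 in replicate 4 (0.890). HAGLR-204 in replicate 2, HAGLR-207 in replicate 1 and HOXB-AS1-201 in replicate 3 each had a gap of 1, since they were listed at 0 in the other 3 libraries. Any row above 0 in a single library has this gap by construction.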

How the results depend on the processing

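No paired analysis was possible because all 4 libraries form 1 group. Of the 6 genes, 3 were above and 3 below 5 FPKM. The count above was 1 with a threshold of 10 FPKM, 1 with libraries scaled to a common sum of 1000000, 1 with the highest transcript per gene and 1 with unchanged versions only (a setting that left HAGLR with no row above 0). The count below was 0 with a threshold of 1 FPKM. Scaling to a common sum shifted all genes by a median of -0.79 (log2). Under it HOXC-AS3 lay at 0.21 (limma adjusted p = 0.259) and HOTAIR at 0.05 (0.768), and neither was placed. For transcript rows of the members, the count below was 20 without a filter, 6 with a mean of at least 1 FPKM and 1 with a threshold of 1 FPKM, where 6 were above. For the other HOX lncRNAs, the count below was 8, 2 and 1 under these 3 settings, and 5 were above with a threshold of 1 FPKM. Over all transcripts, the count below was 12904, 1849 and 1824. With unchanged versions only, HOTAIR turned to -1.56 from 5 FPKM and its log2 ratio was -0.77 to HOXC-AS1 and -0.79 to HOXC-AS2. HOXC-AS1 to HOXC-AS2 was -0.018 under this setting and -0.018 with the highest transcript per gene. Leaving out each library in turn changed 1 call of a gene, that of HOXC-AS1 without replicate 4. It left 2 to 3 genes below and 3 above, 10 to 12 rows below and 3 above, and the ratio of HOXD to HOXC between 1.06 and 1.44. The ratio of internal to upstream HAGLR starts lay between 0.46 and 0.61 and was 0.47 without HAGLR-210, alternatives chosen after seeing the data. Of the alternative differences from 5 FPKM, 64 of 70 kept their direction and their side of the threshold. This count leaves out the thresholds of 1 and 10 FPKM and settings in which a gene was not tested. Of the alternative ratios, 156 of 160 kept their direction. Depth limits HOXC-AS2, HOXC-AS1-201 and HOXB-AS1-202, whose estimated fragments averaged 3.74, 4.02 and 1.79 a library.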

Other observations

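In the windows of the 3 clusters, table rows outside the lists also stood above 5 FPKM, chosen here after their values were seen. FLJ12825, a lncRNA on the plus strand downstream of the coding HOXC genes, had 22.3, 28.0, 26.3 and 18.7 FPKM (23.8 ± 4.17), above HOXC-AS3 and HOTAIR in every library. ENSG00000260597, on the same strand within the HOXC cluster, had 5.19, 9.62, 3.57 and 5.89 FPKM, a range that includes 5 FPKM. Both lie on the strand opposite to the 4 HOXC members.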
